A study of Homo sapiens with 12 samples.

Results

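Forkhead box O (FOXO) transcription factors and the genes they are classically known to switch on were followed at the level of messenger RNA in T47D cells. The set held 10 of the 27864 genes of the count table, picked by symbol: the factors FOXO1, FOXO3 and FOXO4, and the targets CITED2, FBXO32, CCNG2, SESN1, SESN3, BCL6 and TXNIP. T47D is an established luminal, estrogen receptor-positive breast cancer line. A control line (CTRL) and a line with NF1 knocked out (NF1KO) were each given DMSO, the vehicle, or 3 µM BYL719 (alpelisib) for 48 h. BYL719 inhibits the alpha isoform of PI3K, and NF1 encodes neurofibromin, which switches RAS off. CTRL had 3 libraries with DMSO and 3 with BYL719, and NF1KO had 2 with DMSO and 3 with BYL719; the first DMSO replicate of NF1KO is not analysed here. The labels do not say whether the knockout line is a clone, so an effect of losing NF1 cannot be told apart from a property of that line. Nor do they say that replicates came from separate cultures, so p-values measure the spread between these libraries.

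FOXO proteins are the nuclear end of the PI3K-AKT pathway. When PI3K is active, AKT and the related SGK kinases phosphorylate FOXO proteins, which are then bound by 14-3-3 proteins and kept in the cytoplasm. When the pathway is inhibited, FOXO proteins return to the nucleus and bind DNA at sites with the core GTAAACA. Their targets slow the cell cycle, degrade protein, buffer oxidants and restore receptor signalling upstream of PI3K. The location and phosphorylation of FOXO proteins were not measured here, and mRNA levels of the factors do not report them.

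Each library held between 53283945 and 60148876 counts. NF1 held 22 to 51 counts in the NF1KO libraries and 7894 to 16800 in the CTRL libraries. All 8 luminal epithelial markers checked (ESR1, PGR, GATA3, FOXA1, KRT8, KRT18, KRT19 and EPCAM) stood at 123 CPM (counts scaled to a common library total, with TMM-scaled library sizes) or more in each library. They were not equal between the lines. In DMSO, mean ESR1 was 323 CPM in CTRL and 181 in NF1KO, PGR 882 and 577, and FOXA1 302 and 231. The means of GATA3, KRT8, KRT18, KRT19 and EPCAM in DMSO were higher in NF1KO. Of 8 markers of other cell types, 7 stayed below 1 CPM, and only COL1A1 was higher, at 16.6 to 55.2 CPM, while COL1A2 held at most 3 counts. The summed level of these 8 genes was 49.7 to 55.3 CPM in CTRL DMSO, 27.5 to 35.7 in CTRL BYL719, 26.2 in both NF1KO DMSO libraries and 17.3 to 22.2 in NF1KO BYL719. Nearly all of it was COL1A1, with means of 52.2, 31.3, 25.8 and 19.5 CPM in these groups. PECAM1, the next highest, held 0 counts in every CTRL library, 8 and 9 in NF1KO DMSO and 25 to 39 in NF1KO BYL719. The part of these markers in the results was not tested. The CTRL replicate 1 library stood apart from replicates 2 and 3 in DMSO and in BYL719. Counts of replicate 1 differed from the others of its group by a chi-square per degree of freedom of 52.2 to 70.0 across genes, against 7.11 and 11.8 between replicates 2 and 3. NF1KO BYL719 replicate 3 also differed more from its group (27.0 and 35.5) than replicates 1 and 2 did from each other (10.6). In a bulk sample, fewer cells of a kind and less RNA per cell cannot be told apart.

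Levels of different genes can be compared only per length, so CPM were divided by the length in kilobases of the longest coding transcript in the GENCODE v29 annotation. In CTRL DMSO, TXNIP stood at 24.8 ± 2.44 CPM per kb (SD, n = 3) and CITED2 at 21.9 ± 1.11 CPM per kb (SD, n = 3), and their ranges overlapped. FOXO3 (8.34 ± 0.521 CPM per kb) and BCL6 (8.00 ± 0.729 CPM per kb) came next and overlapped as well, followed by CCNG2 (5.63 ± 0.367 CPM per kb) and FBXO32 (5.33 ± 0.393 CPM per kb), which did not separate either. SESN1 (3.78 ± 0.343 CPM per kb) and FOXO4 (3.13 ± 0.578 CPM per kb) overlapped, and FOXO1 was lower than both at 1.75 ± 0.0728 CPM per kb. FOXO3 was therefore the most abundant of the 3 factors, and FOXO1 the least, in each of the 4 groups. In CTRL BYL719 the order at the top changed: CITED2 led with 85.3 ± 4.59 CPM per kb, ahead of TXNIP with 39.2 ± 1.29 and FBXO32 with 20.7 ± 2.20, and these 3 did not overlap. With the length of all annotated exons in place of the longest transcript, FBXO32 stood ahead of BCL6 and CCNG2 in CTRL DMSO, FOXO4 ahead of SESN1 and CITED2 ahead of TXNIP.

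**Figure D1:**
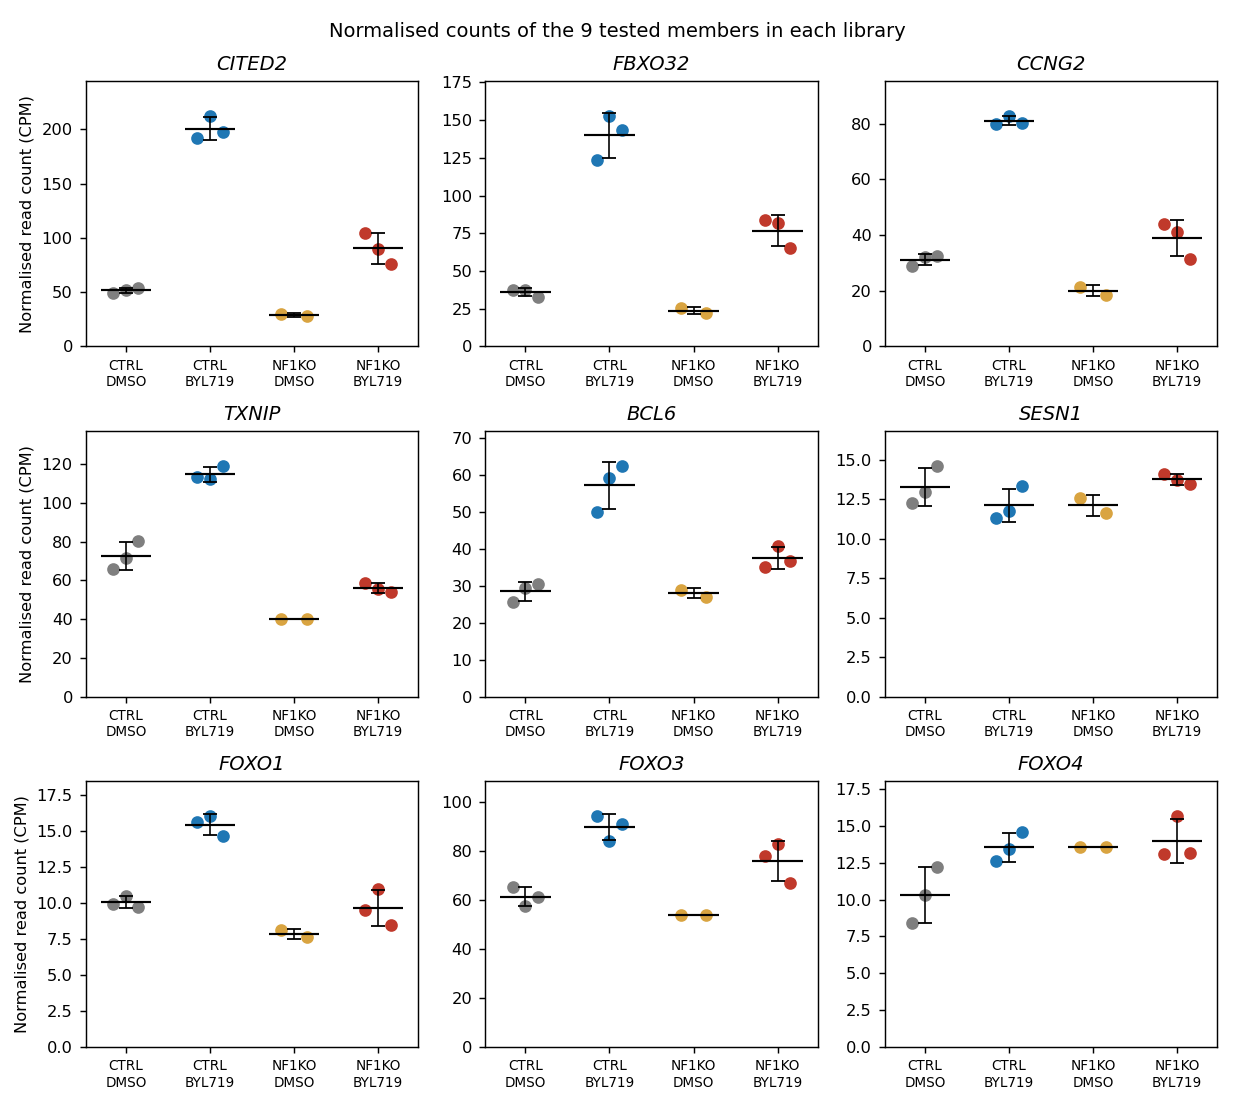
Normalised read counts (CPM, linear axis from 0) of the 9 members with enough counts to test, a panel per gene, with a point per library, a line at the group mean and a bar of ± 1 SD. CITED2, FBXO32 and CCNG2 sit lowest in NF1KO DMSO and highest in CTRL BYL719, where CITED2 reaches 192 to 213 CPM, while SESN1 stays between 11.3 and 14.6 CPM throughout.

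FOXO1 (Entrez 2308, chromosome 13, 40555667 to 40666641, GRCh38) encodes the factor best known for insulin-regulated gene expression. In CTRL it stood at 9.93, 10.5 and 9.71 CPM in DMSO and 15.6, 16.1 and 14.7 CPM in BYL719. In NF1KO it stood at 8.12 and 7.61 CPM in DMSO and 9.52, 11.0 and 8.45 CPM in BYL719. Each CTRL BYL719 library lay above every other library, and NF1KO BYL719 overlapped CTRL DMSO. BYL719 raised FOXO1 in CTRL by a log2 change of 0.62 ± 0.10 (SE; adjusted p = 0.000273). In NF1KO its log2 change was 0.30 ± 0.11, which did not pass the test (adjusted p = 0.0852). It passed with the replicate number as a block in CTRL (adjusted p = 0.0411) and without NF1KO BYL719 replicate 3 (0.0277). FOXO1 was lower in NF1KO in BYL719, by a log2 change of -0.68 ± 0.10 (adjusted p = 0.000137).

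In DMSO the FOXO1 log2 change of NF1KO against CTRL was -0.35 ± 0.11 (adjusted p = 0.0430). This call was lost in the fits without CTRL DMSO replicate 1, 2 or 3 (adjusted p = 0.0718, 0.107 and 0.0626), without CTRL BYL719 replicate 2 or 3 (0.0547 and 0.0551), without NF1KO DMSO replicate 2 or 3 (0.131 and 0.254) and without NF1KO BYL719 replicate 1 (0.0555). It was also lost with no filter on low counts (0.0530). Its log2 change stayed between -0.40 and -0.31 in these fits. Leaving out an NF1KO DMSO library leaves a single one, which is then assumed to vary like the other groups.

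FOXO3 (Entrez 2309, chromosome 6, 108559825 to 108684774), a factor linked to stress resistance and cell death, stood at 65.2, 57.5 and 61.1 CPM in CTRL DMSO and 94.3, 84.1 and 91.2 CPM in CTRL BYL719. In NF1KO it stood at 53.9 and 53.7 CPM in DMSO and 77.8, 82.8 and 66.7 CPM in BYL719. The 4 groups did not overlap: NF1KO DMSO was lowest, then CTRL DMSO, NF1KO BYL719 and CTRL BYL719. The BYL719 effect was a log2 change of 0.55 ± 0.08 in CTRL (adjusted p = 0.000228) and 0.49 ± 0.10 in NF1KO (adjusted p = 0.00450). Their difference was -0.06, with a 95% interval from -0.33 to 0.22. The call in NF1KO was lost without NF1KO DMSO replicate 2 (adjusted p = 0.0501) or replicate 3 (0.0595). NF1KO less CTRL gave a log2 change of -0.19 ± 0.09 with vehicle (adjusted p = 0.188) and -0.25 ± 0.08 with the inhibitor (adjusted p = 0.0351). The latter call did not survive dropping any one of 7 libraries: CTRL DMSO replicate 3 (0.0520), replicates 1 and 3 of CTRL BYL719 (0.0830 and 0.0695), either NF1KO DMSO library (0.0573 and 0.0577), and replicates 1 and 3 of NF1KO BYL719 (0.0593 and 0.119, all adjusted p). It was also lost without both CTRL replicate 1 libraries (0.0552) and with the compared libraries alone (0.0731).

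FOXO3 shares sequence with FOXO3B (Entrez 2310, chromosome 17, 18667629 to 18682314), a near-identical copy. Of the 7266 windows of 76 bases, the read length, in the longest FOXO3 transcript, 999 (13.8%) also occur in the GENCODE transcript of FOXO3B, and 1647 (22.7%) occur in some transcript of another gene. FOXO3B held 40.5% to 44.1% as many counts as FOXO3 in every library, a near-constant share across the 4 groups. How such reads were assigned is not given in the sources used here, so the split between these genes is uncertain. With the counts of both added together, an alternative chosen after seeing the data, the BYL719 effect was 0.56 in CTRL (adjusted p = 0.000171) and 0.49 in NF1KO (adjusted p = 0.00419). None of the other 9 members shared a window of this length with another gene's transcripts.

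**Figure D2:**
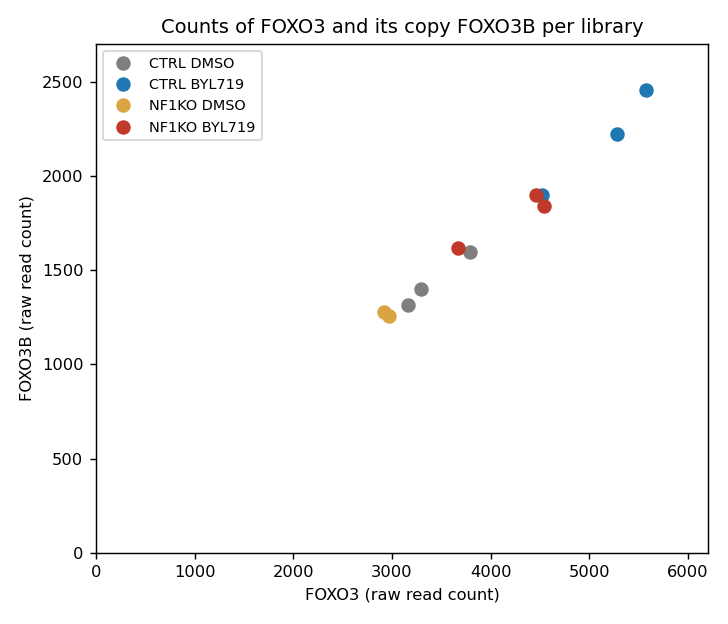
Raw read counts of FOXO3 (x axis) against FOXO3B (y axis), a point per library, coloured by group, on linear axes from 0. The 11 libraries fall near a line through the origin, with FOXO3B at 40.5% to 44.1% of FOXO3.

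FOXO4 (Entrez 4303, chromosome X, 71095851 to 71103532), the X-linked factor, was measured at 8.43, 10.3 and 12.2 CPM in CTRL DMSO and at 12.6, 13.4 and 14.6 CPM in CTRL BYL719. In NF1KO it was at 13.6 and 13.6 CPM in DMSO and at 13.1, 15.7 and 13.2 CPM in BYL719. The CTRL DMSO libraries were the lowest, and the other 3 groups overlapped. In CTRL the log2 change with BYL719 was 0.39 ± 0.13 (adjusted p = 0.0243). Dropping CTRL DMSO replicate 1 cut the estimate to 0.26 and ended the call (adjusted p = 0.0817). The call also ended on dropping CTRL DMSO replicate 2 (0.0598) or CTRL BYL719 replicate 2 or 3 (0.0506 and 0.0839), and with the 6 CTRL libraries fitted alone (0.0596). In NF1KO the log2 change was 0.04 ± 0.14 (adjusted p = 0.876). Against CTRL DMSO, NF1KO DMSO was higher by a log2 value of 0.40 ± 0.14 that did not pass the test (adjusted p = 0.0659). It passed with the replicate block in CTRL (adjusted p = 0.00508), without CTRL DMSO replicate 3 (0.0167) and without CTRL BYL719 replicate 1 (adjusted p = 0.0480). In BYL719 the lines differed by 0.05, with an interval from -0.23 to 0.32.

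CITED2 (Entrez 10370, chromosome 6, 139371807 to 139374648) encodes a co-regulator that binds CBP and p300 and limits HIF1A activity. It stood at 49.0, 51.7 and 54.2 CPM in CTRL DMSO, 192, 213 and 198 CPM in CTRL BYL719, 30.0 and 27.9 CPM in NF1KO DMSO, and 105, 90.2 and 76.0 CPM in NF1KO BYL719. The 4 groups did not overlap, and both lines rose with BYL719, from a lower start in NF1KO. The rise was 3.89-fold in CTRL (log2 change 1.96 ± 0.10, adjusted p = 5.81e-08) and 3.12-fold in NF1KO (1.64 ± 0.12, adjusted p = 1.95e-05). NF1KO held less CITED2 than CTRL, by a log2 change of -0.83 ± 0.12 before drug (adjusted p = 0.000292) and -1.15 ± 0.10 under BYL719 (adjusted p = 2.28e-06).

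FBXO32 (Entrez 114907) encodes atrogin-1, a substrate receptor of an SCF ubiquitin ligase first known from muscle wasting. Its levels were 37.5, 37.5 and 32.9 CPM in CTRL DMSO, 124, 153 and 143 CPM in CTRL BYL719, 25.6 and 22.0 CPM in NF1KO DMSO, and 83.6, 81.5 and 65.2 CPM in NF1KO BYL719. The groups fell in the same order as for CITED2, again without overlap. BYL719 raised FBXO32 3.89-fold in CTRL (1.96 ± 0.11 on the log2 scale, adjusted p = 1.14e-07) and 3.22-fold in NF1KO (1.69 ± 0.13, adjusted p = 2.62e-05). It was lower in NF1KO by a log2 change of -0.60 ± 0.13 before drug (adjusted p = 0.00587) and of -0.87 ± 0.11 under BYL719 (adjusted p = 5.32e-05). The call in DMSO was lost without NF1KO DMSO replicate 3 (adjusted p = 0.0941).

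CCNG2 (Entrez 901, chromosome 4, 77157207 to 77170060) encodes cyclin G2, an unconventional cyclin that restrains the cell cycle. It was at 28.8, 32.2 and 32.4 CPM in CTRL DMSO and 79.7, 82.8 and 80.4 CPM in CTRL BYL719. NF1KO held 21.4 and 18.6 CPM in DMSO and 43.8, 41.2 and 31.5 CPM in BYL719. NF1KO BYL719 replicate 3 lay within the range of CTRL DMSO, so here the treated knockout and the untreated control overlapped. The BYL719 effect was 2.60-fold in CTRL (log2 change 1.38 ± 0.11, adjusted p = 1.40e-06) and 1.94-fold in NF1KO (0.95 ± 0.13, adjusted p = 0.000559). CCNG2 was lower in NF1KO by a log2 change of -0.64 ± 0.13 before drug (adjusted p = 0.00367, and 0.0658 without NF1KO DMSO replicate 3) and of -1.06 ± 0.11 under BYL719 (adjusted p = 9.00e-06).

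TXNIP (Entrez 10628, chromosome 1, 145992435 to 145996579) encodes an arrestin-domain protein that binds thioredoxin and lowers glucose uptake, and is also a target of the glucose-sensing factors MondoA (MLXIP) and ChREBP (MLXIPL) with their partner MLX. Its levels were 65.9, 71.8 and 80.1 CPM in CTRL DMSO, 113, 112 and 119 CPM in CTRL BYL719, 39.9 and 39.9 CPM in NF1KO DMSO, and 58.8, 55.4 and 54.2 CPM in NF1KO BYL719. The groups did not overlap, and unlike CITED2 and FBXO32 each treated NF1KO library stayed below each untreated CTRL library. BYL719 raised TXNIP by a log2 change of 0.66 ± 0.07 in CTRL (adjusted p = 2.04e-05) and 0.49 ± 0.08 in NF1KO (adjusted p = 0.00230). NF1KO was lower by a log2 change of -0.86 ± 0.08 before drug (adjusted p = 1.68e-05) and -1.03 ± 0.07 under BYL719 (adjusted p = 4.39e-07).

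As 8 members rose with BYL719 in CTRL, the 250 bases upstream of each annotated start were searched on both strands for the FOXO core GTAAACA, the insulin response element core CAAAACA and the carbohydrate response element, CACGNG and CNCGNG with 5 bases between, which MondoA and ChREBP bind. RefSeq promoter windows on GRCh38.p14 were at hand for FOXO1, FOXO3, FOXO4, CITED2, CCNG2, SESN1, SESN3, BCL6 and TXNIP. These 9 members had 18 windows between them. Of all 35116 windows, 2.98% hold the FOXO core, 4.30% the insulin response core and 0.42% the carbohydrate response element. Counted by gene, 3.66%, 5.29% and 0.53% of 27305 genes have a window with the motif. TXNIP was the only one of these 9 with a match: GTAAACA begins 124 bases upstream of its start, and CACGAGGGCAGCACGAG, a carbohydrate response element, begins 88 bases upstream. For TXNIP and for the strong risers CITED2 and CCNG2, 1 window each is shown 5′ to 3′ on the strand of the gene, with matches in capitals. TXNIP and CITED2 have further windows, which held no match. A match is a description and not a bound site, and the lack of one says only that these letters are not in this window.
TXNIP, chr1:145996580-145996829, minus strand: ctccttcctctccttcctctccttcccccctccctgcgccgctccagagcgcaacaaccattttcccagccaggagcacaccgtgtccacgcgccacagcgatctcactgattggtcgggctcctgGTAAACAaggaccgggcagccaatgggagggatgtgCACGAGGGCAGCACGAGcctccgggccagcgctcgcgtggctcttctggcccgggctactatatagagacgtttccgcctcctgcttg
CITED2, chr6:139374649-139374898, minus strand: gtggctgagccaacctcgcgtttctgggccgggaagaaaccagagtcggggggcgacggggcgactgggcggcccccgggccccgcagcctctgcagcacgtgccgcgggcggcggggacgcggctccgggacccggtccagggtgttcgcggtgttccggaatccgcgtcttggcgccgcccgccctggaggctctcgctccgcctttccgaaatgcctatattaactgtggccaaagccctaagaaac
CCNG2, chr4:77156957-77157206, plus strand: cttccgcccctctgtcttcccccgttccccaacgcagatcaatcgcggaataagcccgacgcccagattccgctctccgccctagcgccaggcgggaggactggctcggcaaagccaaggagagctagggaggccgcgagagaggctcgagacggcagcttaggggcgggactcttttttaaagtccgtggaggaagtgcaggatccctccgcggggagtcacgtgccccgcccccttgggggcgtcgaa

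BCL6 (Entrez 604, chromosome 3, 187721377 to 187745468), a transcriptional repressor best known from germinal-centre B cells, stood at 25.6, 29.5 and 30.6 CPM in CTRL DMSO and 50.1, 59.2 and 62.6 CPM in CTRL BYL719. In NF1KO it stood at 29.0 and 27.1 CPM in DMSO and 35.2, 40.8 and 36.8 CPM in BYL719. The untreated lines overlapped, and the treated lines did not. BYL719 raised BCL6 2.01-fold in CTRL (log2 change 1.00 ± 0.10, adjusted p = 6.97e-06) and 1.34-fold in NF1KO (0.42 ± 0.11, adjusted p = 0.0205). The call in NF1KO was lost without NF1KO DMSO replicate 2 or 3 (adjusted p = 0.0816 and 0.176) or NF1KO BYL719 replicate 2 (0.0764). The untreated lines differed by -0.03 ± 0.11 (adjusted p = 0.891), with an interval from -0.26 to 0.21, and under BYL719 NF1KO was lower, with a log2 change of -0.61 ± 0.10 (adjusted p = 0.000314).

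SESN1 (Entrez 27244, chromosome 6, 108984309 to 109094846) and SESN3 (Entrez 143686, chromosome 11, 95165513 to 95232475) encode sestrins, which restrain mTORC1 signalling. SESN1 stood at 12.3, 13.0 and 14.6 CPM in CTRL DMSO, 11.3, 11.7 and 13.3 CPM in CTRL BYL719, 12.6 and 11.6 CPM in NF1KO DMSO, and 14.1, 13.7 and 13.4 CPM in NF1KO BYL719. NF1KO BYL719 lay above NF1KO DMSO and CTRL BYL719 without overlap, and every other pair of groups overlapped. Its log2 change with BYL719 was -0.13 ± 0.09 in CTRL (adjusted p = 0.261) and 0.18 ± 0.10 in NF1KO (adjusted p = 0.234). The lines differed by -0.13 ± 0.10 before drug (adjusted p = 0.390) and by 0.18 ± 0.09 under BYL719 (adjusted p = 0.127, and 0.0262 with the replicate block in CTRL). SESN3 held 3, 6 and 7 reads in CTRL DMSO, 1, 0 and 0 in CTRL BYL719, 1 and 0 in NF1KO DMSO, and 0, 0 and 3 in NF1KO BYL719. It was at or near the detection limit and did not pass the filter on low counts. With no filter, SESN3 was called lower with BYL719 in CTRL (adjusted p = 0.0268) and in no other comparison (0.132 to 0.842), and its fitted fold change is not given because so few reads leave it to the prior count. SESN1 overlaps ARMC2, whose counts were 15.8% of its own.

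**Figure D3:**
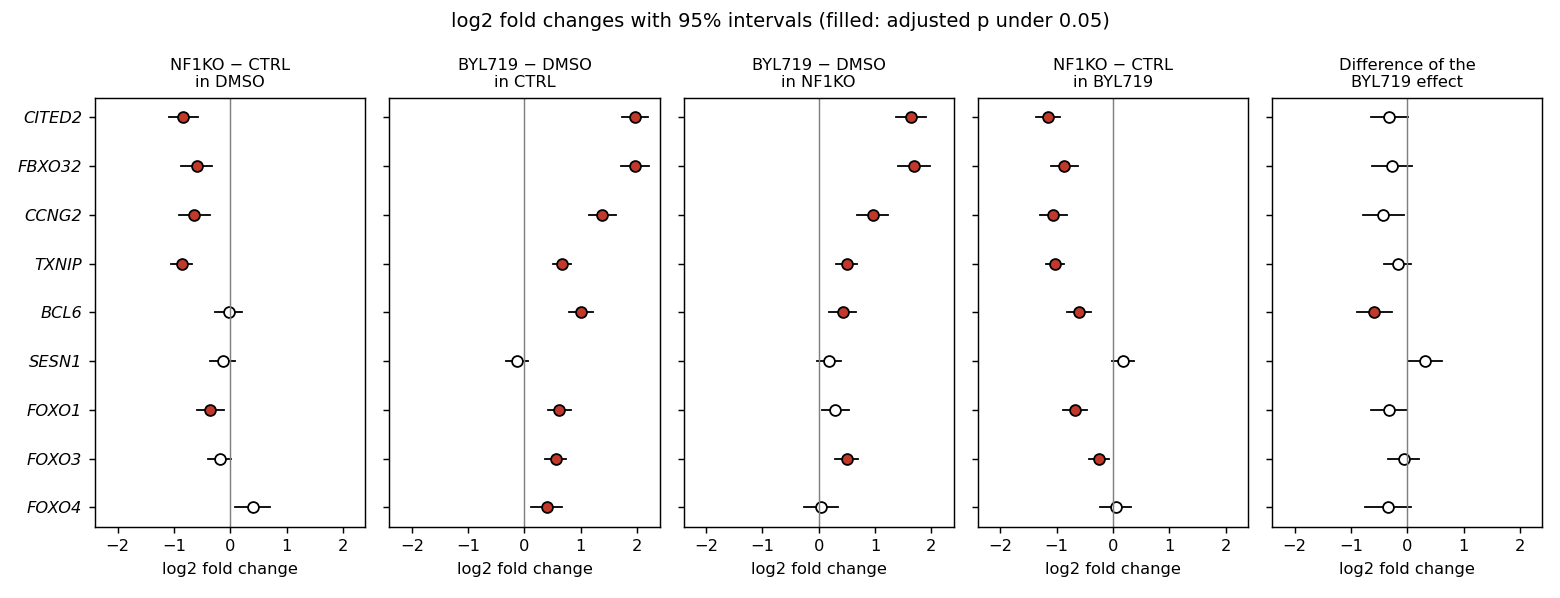
log2 fold changes of the 9 tested members (points) with their 95% intervals (bars) in the 5 comparisons, filled where the adjusted p is under 0.05. In CTRL all members but SESN1 lie to the right of 0 and are filled, and in the rightmost panel, the drug effect in NF1KO less that in CTRL, BCL6 alone is filled.

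In the control line, with PI3K alpha inhibited, of the 9 tested members, 8 rose and 0 fell, where 22.6% of all tested genes rose and 21.8% fell. All 8 had treated and untreated libraries that did not overlap (8 higher and 0 lower, against 25.8% and 25.3% of all tested genes). CITED2, FBXO32, CCNG2 and BCL6 rose 2-fold or more, and FOXO1, FOXO3, FOXO4 and TXNIP less. The edgeR test gave 0 falls also at an unadjusted p under 0.05, and DESeq2 and limma-voom each gave 8 rises and 0 falls. With no filter on low counts, 8 rose and 1, SESN3, fell. The members' median log2 change was 0.66, against 0.0049 over all genes. Leaving out a single library left 7 or 8 members called, FOXO4 being the one lost, and leaving out both CTRL replicate 1 libraries left 8.

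In NF1KO, BYL719 raised 6 of the 9 members and lowered 0, where 10.3% of all tested genes rose and 8.47% fell. Treated libraries lay above untreated ones without overlap for 8 members and below them for 0 (28.4% and 26.2% of all tested genes). CITED2, FBXO32, CCNG2, BCL6, TXNIP and FOXO3 rose, and FOXO1, FOXO4 and SESN1 did not pass the test. No member fell at an unadjusted p under 0.05 in the edgeR test, and DESeq2 and limma-voom each called 6 rises and 0 falls. The median was 0.49, against 0.014 over all genes. Without NF1KO DMSO replicate 2 or 3 only 4 members were called, FOXO3 and BCL6 being lost (adjusted p = 0.0501 and 0.0816, or 0.0595 and 0.176).

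Before drug, 5 of the 9 members (FOXO1, CITED2, FBXO32, CCNG2 and TXNIP) were lower in NF1KO and 0 were higher, where 10.3% of all tested genes were lower and 9.99% higher. The libraries of the lines did not overlap for 6 lower members and 1 higher one (28.2% and 27.9% of all tested genes). FOXO4 had an unadjusted p under 0.05 in the other direction and was called higher by DESeq2, while limma-voom called 5 lower and 0 higher. TXNIP and CITED2 differed most, at 0.549 and 0.561 of their CTRL level. Without NF1KO DMSO replicate 3, only 2 members were called (CITED2 and TXNIP). In BYL719, 7 of the 9 were lower in NF1KO and 0 higher, where 19.0% of all tested genes were lower and 20.8% higher. Here 7 members were lower and 1 higher without overlap (23.7% and 25.2% of all tested genes). CITED2, TXNIP and CCNG2 stood at 0.450, 0.489 and 0.480 of their CTRL level. DESeq2 and limma-voom gave the same counts of 7 and 0, and the edgeR test gave 0 higher also at an unadjusted p under 0.05. Each of these 4 comparisons shares a group of libraries with 2 of the others, so they are not all independent.

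Whether the response to BYL719 differed between the lines was tested directly, as the log2 effect in NF1KO less that in CTRL. BCL6 alone was called, with -0.58 ± 0.15 (adjusted p = 0.0264), where 3.71% of all tested genes had a lower effect in NF1KO and 5.68% a higher one. Its call was lost without CTRL BYL719 replicate 2 or 3 (adjusted p = 0.0608 and 0.0590), NF1KO DMSO replicate 2 or 3 (0.131 and 0.0697) or NF1KO BYL719 replicate 1 or 3 (0.0650 and 0.0524), with a log2 difference between -0.63 and -0.53 in these fits. The members' median difference was -0.32, against 0.011 over all genes. All 9 estimates rest on the same 11 libraries, so they are not independent of each other. The estimate lay below 0 for 8 of the 9 members and above 0 for SESN1. For CCNG2 it was -0.42, with a 95% interval from -0.78 to -0.07 (adjusted p = 0.149), and for FOXO1 -0.32 (-0.65 to -0.0039, adjusted p = 0.232). CITED2 (-0.32, interval -0.65 to 0.01), FBXO32 (-0.27, interval -0.63 to 0.09), FOXO4 (-0.35, interval -0.76 to 0.06) and TXNIP (-0.17, interval -0.41 to 0.07) had intervals that include 0. The SESN1 difference was 0.31 (0.02 to 0.61, adjusted p = 0.203). With the replicate block in CTRL, where only the replicate 1 libraries are clearly matched by number, SESN1 was called (adjusted p = 0.0378) beside BCL6. A block within each line called 8 members, where 4345 genes were called in all. It assumes pairs in NF1KO, which 2 DMSO libraries cannot settle.

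Among the members themselves, CITED2 and FBXO32 had the most similar profile over the 11 libraries. Likeness was measured as the root mean square difference of log2 CPM, each gene centred on its mean, and it came to 0.17 for this pair. FOXO1 and FOXO3 followed at 0.20, and CITED2 and SESN1 were the furthest apart at 1.01. Among 10316 candidate genes, the 3 nearest to CITED2 were FBXO32 (0.17), GTF2IRD2 (0.17) and GTF2IRD2B (0.19), of which the latter are close copies of each other. FAM107B (0.11), ATP8A1 (0.12) and PNRC1 (0.17) were nearest to CCNG2, and C12orf76 (0.08), SNX33 (0.09) and BLNK (0.10) to BCL6. TXNIP was most like SLC5A12 (0.10), RIMS4 (0.11) and SOWAHB (0.11), and FOXO1 most like MAN1C1, NR2F2 and CD47 (0.08 each). FOXO3B was nearest to FOXO3 (0.04), ahead of ARMCX3 and ZNF623 (0.06 each). FOXO4 was nearest to ZDHHC24 and TMEM185A (0.09 each) and GATA3 (0.10), and SESN1 to APH1B (0.06), LLGL1 and AP3S1 (0.07 each). For FBXO32 they were GTF2IRD2, GTF2IRD2B (0.16 each) and CITED2.

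Beyond the members, 28 other reported FOXO targets were listed, of which 25 had enough counts to test. In CTRL, BYL719 raised 12 and lowered 3, where 22.6% of all tested genes rose and 21.8% fell. In NF1KO it raised 12 and lowered 1, where 10.3% rose and 8.47% fell. The list medians were 0.27 and 0.39 on the log2 scale, against 0.0049 and 0.014 over all genes. In CTRL the smallest p-values belonged to the autophagy gene GABARAPL1 (1.18 ± 0.08), the MYC antagonist MXI1 (1.09 ± 0.08), the receptor ERBB3 (0.72 ± 0.06) and the insulin receptor INSR (0.95 ± 0.09). In NF1KO they belonged to the receptor substrate IRS2 (1.25 ± 0.12), INSR (0.91 ± 0.10), MXI1 (0.86 ± 0.10) and the pro-apoptotic BCL2L11 (0.53 ± 0.07). The 3 that fell in CTRL, named after their values were seen, were the cell-cycle inhibitor CDKN1A (-0.36), the mitophagy receptor BNIP3 (-0.32) and the peroxiredoxin PRDX3 (-0.28). The CDKN1A call ended on dropping CTRL DMSO replicate 2 or 3 or CTRL BYL719 replicate 1 (adjusted p = 0.0952, 0.0853 and 0.0756) and with the compared libraries alone (0.0689), and that of PRDX3 on dropping CTRL DMSO replicate 2 (0.0659). DDIT4, an mTORC1 inhibitor, fell in NF1KO (-0.42), a call that ended on dropping NF1KO DMSO replicate 2 or 3 (adjusted p = 0.148 and 0.112) or NF1KO BYL719 replicate 2 (0.0854). Without NF1KO DMSO replicate 3 the NF1KO count was 8 rises and 0 falls.

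Between the lines, other targets were called in both directions. In DMSO 3 of 25 were higher and 4 lower in NF1KO, where 9.99% and 10.3% of all tested genes were, and in BYL719 8 were higher and 9 lower, where 20.8% and 19.0% of all were. CDKN1A was higher (1.32 ± 0.13 in DMSO and 1.54 ± 0.12 in BYL719), while PPARGC1A, a co-activator of mitochondrial genes, was lower (-1.44 ± 0.17 and -1.47 ± 0.14), as was ERBB3 (-0.46 ± 0.07 and -0.66 ± 0.06). BNIP3 was lower in DMSO (-0.64 ± 0.07), and GABARAPL1 in BYL719 (-0.88 ± 0.08).

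**Figure D4:**
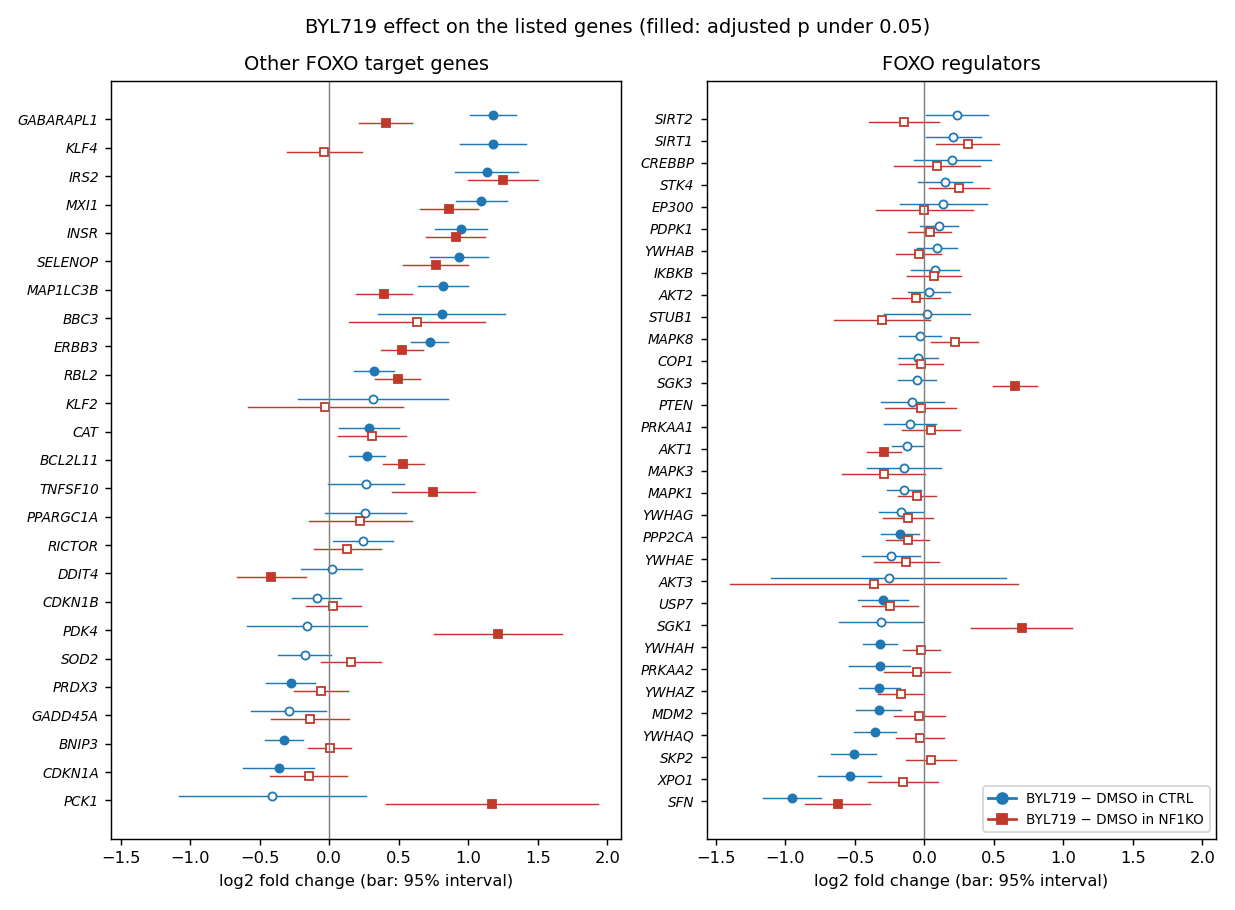
log2 fold change of BYL719 against DMSO (x axis, bars: 95% intervals) for the tested genes of the lists of other FOXO targets and of FOXO regulators, in CTRL (circles) and NF1KO (squares), filled where the adjusted p is under 0.05. IRS2, INSR and MXI1 are filled in both lines, while SGK1 (0.70) and SGK3 (0.65) rise in NF1KO and are not called in CTRL.

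Genes whose products control FOXO proteins were listed as well. Of 33 listed kinases, phosphatases, ubiquitin enzymes, acetylation enzymes, 14-3-3 proteins and the exporter XPO1, 32 were tested. In CTRL, BYL719 lowered 10 and raised 0, where 21.8% of all tested genes fell and 22.6% rose. With the replicate block in CTRL it lowered 16 and raised 4, where 4482 of all 16081 tested genes fell and 4533 rose. At an unadjusted p under 0.05 the edgeR test gave 2 rises and 15 falls, DESeq2 0 and 13, and limma-voom 0 and 11. The 7 genes for 14-3-3 proteins are a part of this list that was not set as a group in advance. In NF1KO 0 of them rose and 1 fell, where 10.3% and 8.47% of all tested genes did. In CTRL 0 rose and 4 fell, where 22.6% and 21.8% did. SFN (-0.95 ± 0.10) and YWHAH (-0.32 ± 0.06) were among these 4. Also in CTRL, SKP2, the F-box protein that marks FOXO1 for degradation, fell by 0.51 on the log2 scale and XPO1 fell by 0.54. In NF1KO 2 regulators rose and 2 fell, where 10.3% and 8.47% of all tested genes did. With the replicate block in CTRL these were 5 and 5, where 2923 of all tested genes rose and 2597 fell. SGK3 rose by 0.65 ± 0.07 and SGK1 by 0.70 ± 0.17, while SFN changed by -0.62 ± 0.11 and AKT1 by -0.29 ± 0.06. SGK1 was not called without NF1KO DMSO replicate 2 or 3 (adjusted p = 0.123 and 0.0678), nor AKT1 without replicate 3 (0.0645), and the total of 4 became 2 without replicate 3 and 7 without CTRL BYL719 replicate 1. In DMSO, SGK1 (-1.23 ± 0.17), SGK3 (-0.35 ± 0.07) and the kinase MAPK8 (-0.24 ± 0.08) were lower in NF1KO, and the phosphatase subunit PPP2CA was higher (0.25 ± 0.07). These were the 4 called of 32, where 10.3% of all tested genes were lower and 9.99% higher. The SGK3 call was lost without NF1KO DMSO replicate 2 or 3 (adjusted p = 0.0513 and 0.0571), as was that of PPP2CA (0.166 and 0.131), also without CTRL DMSO replicate 1, 2 or 3 (0.0611, 0.0527 and 0.0695). MAPK8 was lost without any one of 8 libraries (all but CTRL BYL719 replicate 1 and NF1KO BYL719 replicates 1 and 3), with adjusted p from 0.0574 to 0.315. The MAPK8 call was also lost with RLE scaling (adjusted p = 0.0526) and with no filter on low counts (0.072). With the replicate block in CTRL 6 regulators were lower and 4 higher, where 3006 of all tested genes were lower and 2864 higher. The count was 1 without NF1KO DMSO replicate 2 or 3, 2 without CTRL DMSO replicate 2 or 3, and 7 without CTRL BYL719 replicate 1. In BYL719, 9 were higher and 3 lower in NF1KO, where 20.8% and 19.0% of all tested genes were, with SKP2 (0.51 ± 0.07), the AMPK subunit PRKAA2 (0.56 ± 0.10) and SGK3 (0.35 ± 0.06) higher and the deacetylase SIRT2 (-0.70 ± 0.10) lower.

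Relatives of the members did not all follow them. FOXO6, the remaining FOXO factor, stood at 2.04 to 2.84 CPM in CTRL DMSO and 4.04 to 4.53 CPM in NF1KO DMSO and was higher in NF1KO in both treatments (0.81 ± 0.17 before drug, adjusted p = 0.00509, and 0.82 ± 0.15 under BYL719, adjusted p = 0.00111). Its BYL719 effect was -0.09 ± 0.16 in CTRL and -0.08 ± 0.17 in NF1KO, neither of them called. Without NF1KO DMSO replicate 3 its difference between the untreated lines was not called (adjusted p = 0.0646). SESN2, the stress-induced sestrin, was higher in NF1KO in DMSO (0.63 ± 0.07) and fell with BYL719 in NF1KO by 0.51 on the log2 scale. CITED4 rose with BYL719 in CTRL (0.85 ± 0.15) and in NF1KO (0.67 ± 0.18), and the TXNIP relative ARRDC3 did so too (0.92 ± 0.10 and 0.52 ± 0.11). FBXO25, the closest relative of FBXO32, rose in CTRL (0.74 ± 0.10), and so did ARRDC1 (0.69 ± 0.11). In NF1KO, mean FBXO25 was 16.5 CPM in DMSO and 21.4 CPM in BYL719, while mean ARRDC1 was 37.6 and 32.5 CPM. MLX was higher in NF1KO in DMSO (0.40 ± 0.08) and in BYL719 (0.36 ± 0.07), fell with BYL719 in NF1KO by 0.32, and MLXIPL was lower in NF1KO in DMSO (-0.70 ± 0.19). Dropping NF1KO DMSO replicate 3 ended the NF1KO calls of ARRDC3, CITED4 and MLX with BYL719 (adjusted p = 0.105, 0.159 and 0.140), and those of MLX and MLXIPL between the untreated lines (0.0524 and 0.0778). Dropping replicate 2 ended those of CITED4 and MLX with BYL719 (0.101 and 0.0737) and of MLXIPL (0.173). CITED4 was also lost without NF1KO BYL719 replicate 2 or 3 (0.0510 and 0.0602), MLX without NF1KO BYL719 replicate 2 (0.0641) and MLXIPL without CTRL DMSO replicate 1 (0.0641). In BYL719, ARRDC1 (-0.80 ± 0.11) and CITED4 (-0.76 ± 0.15) were lower in NF1KO. Of the 14 tested relatives, 4 rose and 2 fell with BYL719 in each line, where 22.6% and 21.8% of all tested genes did in CTRL and 10.3% and 8.47% in NF1KO. In CTRL these counts are near the share of all genes. In NF1KO the total of 6 became 2 without NF1KO DMSO replicate 2, 1 without replicate 3 and 2 without NF1KO BYL719 replicate 2. In DMSO 3 were higher and 2 lower in NF1KO, where 9.99% and 10.3% of all tested genes were. This total fell when either NF1KO DMSO library was left out. In BYL719 3 were higher and 3 lower, near the 20.8% and 19.0% of all tested genes.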

How the data were processed

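Messenger RNA of 11 libraries was analysed from the authors' deposited table of raw counts per Entrez gene, which had no other normalisation. Per the labels' protocols, a stranded mRNA kit and single reads of 76 bases were used, and per the submitters' processing notes STAR 2.5.2a, SAMtools 1.7, Picard 2.9.2, edgeR and hg38 are named. The counting tool, its strand setting and the annotation are not given in the sources used here.

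The analysis used edgeR 4.0.16 in R 4.3.3. Of 27864 genes, 16081 passed filterByExpr. After TMM scaling, all 4 groups entered 1 quasi-likelihood fit, which left 7 residual degrees of freedom. The 2-sided p-values were adjusted over all tested genes (Benjamini-Hochberg), with calls at under 0.05. The SE is the log2 fold change divided by the square root of F. The fit was run on simulated libraries drawn independently, without outlying or paired replicates, so that run does not show how the fit handles these. The members, lists, named genes (up to 4 called genes per list and comparison by adjusted p, NF1, and the 3 nearest profiles per member among genes whose log2 CPM averaged 2 or more) and tests were chosen with earlier results of these data known. Alternatives were RLE scaling, no filter, a floor of 1 CPM reached by 3 libraries, limma-voom (limma 3.58.1), DESeq2 1.42.0, replicate blocks, the compared libraries alone and leaving out each library. A block in CTRL alone, leaving out both CTRL replicate 1 libraries and adding FOXO3B to FOXO3 were added after seeing the data. Deviations from the group means of same-numbered CTRL libraries correlated across genes at 0.595, 0.337 and 0.318. Unlike numbers correlated at 0.228 and 0.177 between replicates 2 and 3, and at -0.419 to -0.362 where replicate 1 was involved. Only replicate 1 is thus clearly matched by number in CTRL, since its distance from the group mean also ties replicates 2 and 3 together. In NF1KO same numbers correlated at 0.084 and 0.149. Its 2 DMSO libraries have mirrored deviations, so these values cannot settle whether NF1KO libraries are paired. Gene positions and promoters are RefSeq's on GRCh38.p14, matched by Entrez identifier. Figures were drawn with matplotlib 3.10.9.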

Additional observations from a re-analysis of the deposited data

Results flagged for a closer look

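The effect of BYL719 differed between the lines, by the test of the difference itself, for BCL6 and for 10 genes of the 3 other lists. Of 25 tested other targets, 1 had a higher and 3 a lower effect in NF1KO. Of 32 tested regulators 4 were higher and 0 lower, and of 14 tested relatives 0 and 2. Of all tested genes, 5.68% had a higher effect in NF1KO and 3.71% a lower one. For BCL6 the log2 effect in NF1KO less that in CTRL was -0.58. Among other FOXO targets the difference was -1.21 for KLF4, a transcription factor that rose from 5.36 ± 0.341 to 12.1 ± 0.935 CPM (SD, n = 3) in CTRL and stood at 6.46 ± 0.293 (n = 2) and 6.31 ± 0.806 CPM (n = 3) in NF1KO. It was -0.77 for GABARAPL1 and -0.42 for MAP1LC3B, both of autophagy, and 1.38 for PDK4, the kinase that restrains pyruvate oxidation, at 1.77 ± 0.450 and 1.58 ± 0.256 CPM (SD, n = 3) in CTRL and 2.11 ± 0.196 (n = 2) and 4.91 ± 0.501 CPM (n = 3) in NF1KO. Among FOXO regulators it was 1.01 for SGK1, 0.70 for SGK3, 0.55 for SKP2 and 0.30 for YWHAH. Among relatives it was -0.90 for ARRDC1 and -0.39 for SESN2. Several of these calls were lost when 1 library was left out. MAP1LC3B passed in no fit that left out a library other than CTRL BYL719 replicate 1 (adjusted p from 0.0569 to 0.251), and YWHAH in none but those without CTRL DMSO replicate 1 or CTRL BYL719 replicate 1 (0.0569 to 0.189). Without NF1KO DMSO replicate 3, PDK4 (0.0658) and SKP2 (0.0635) were lost, without replicate 2 SGK1 (0.0770), and without either SESN2 (0.108 and 0.114). SESN2 was also lost without CTRL DMSO replicate 2 (0.0608) or NF1KO BYL719 replicate 2 (0.0539), and BCL6 as given above. With no filter on low counts, the calls of MAP1LC3B, YWHAH and SESN2 were lost too, and that of YWHAH also with RLE scaling. Groups of 2 or 3 libraries are too small for a check of single outlying libraries.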

How the results depend on the processing

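Of 923 values of a member under an alternative, 869 kept their side of the threshold, 36 lost and 18 gained a call. The sign changed in 6 (of BCL6, FOXO3 and FOXO4), none of them called. Of 1513 values of other named genes, 77 lost and 14 gained a call, and the sign changed in 3 (of FOXO6), none of them called. With the replicate block in CTRL alone, 5870 rather than 3269 genes were called for NF1KO against CTRL in DMSO, 5520 rather than 3014 for BYL719 in NF1KO and 2974 rather than 1510 for the difference of effects, where 2 members were called rather than 1. Regulators called were then 10 rather than 4, 20 rather than 10 (BYL719 in CTRL), 10 rather than 4 (BYL719 in NF1KO) and 9 rather than 4 (difference), other targets 9 rather than 4 and relatives 4 rather than 2 (difference). A replicate block on the number over all groups gave 4664 genes for BYL719 in NF1KO, 18 regulators in CTRL, 9 in NF1KO and 7 other targets for the difference. The replicate block within each line gave 6744 genes for BYL719 in NF1KO and 4345 for the difference, 8 members, 15 other targets, 11 regulators and 5 relatives for the difference, and 23 and 15 regulators for BYL719 in CTRL and NF1KO. Without both CTRL replicate 1 libraries there were 5312 genes for BYL719 in NF1KO and 2411 for the difference, 8 other targets, 9 regulators and 4 relatives for the difference, and 10 regulators in NF1KO. With the compared libraries alone 8 regulators were called in NF1KO, and with no filter 1 relative for the difference. The cause was not tested.

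Leaving out each library in turn gave 1523 to 4256 genes and 2 to 6 members for NF1KO against CTRL in DMSO, 6013 to 7464 and 7 to 8 for BYL719 in CTRL, 788 to 3962 and 4 to 7 for BYL719 in NF1KO, 5440 to 6790 and 6 to 7 for NF1KO against CTRL in BYL719, and 740 to 2155 and 0 to 1 for the difference. Over the same comparisons in turn, other targets called numbered 5 to 8, 13 to 15, 8 to 15, 15 to 18 and 2 to 5, regulators 1 to 7, 9 to 13, 2 to 7, 9 to 13 and 2 to 6, and relatives 1 to 5, 6 to 7, 1 to 7, 6 to 7 and 1 to 4. The lowest counts of genes came without NF1KO DMSO replicate 3 in the comparisons that use that group, and without CTRL BYL719 replicate 3 or NF1KO BYL719 replicate 1 for BYL719 in CTRL and for the lines in BYL719. SESN3 held 21 reads in all, so its changes are poorly measured at this depth.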

Other observations

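PCK1, an enzyme of gluconeogenesis, TNFSF10, a death ligand, and PDK4 are further FOXO targets, named after their values were seen. PCK1 held few reads, with 12 and 21 counts in NF1KO DMSO and 33 to 43 in NF1KO BYL719. With BYL719 in NF1KO PCK1, TNFSF10 and PDK4 rose by log2 changes of 1.17 ± 0.35, 0.75 ± 0.14 and 1.22 ± 0.21. In CTRL their log2 changes were -0.41 ± 0.31, 0.27 ± 0.13 and -0.16 ± 0.20, and none was called, though TNFSF10 was with the replicate block in CTRL (adjusted p = 0.0136) and without CTRL BYL719 replicate 1 (0.0101). The NF1KO call of PCK1 was lost without any one of the 5 NF1KO libraries (adjusted p from 0.0623 to 0.269), and that of TNFSF10 without NF1KO DMSO replicate 3 (0.0517). The effect differed between the lines for PDK4, but not beyond the threshold for PCK1 (1.58, adjusted p = 0.0550) or TNFSF10 (0.48, adjusted p = 0.141), which both passed with the replicate block in CTRL (0.0150 and 0.00918).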
